A study of Mus musculus with 16 samples.

Results

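The genes described here encode 6 lysosomal proteases (Ctsa, Ctsb, Ctsd, Ctsh, Ctsl and Ctsz), 2 lysosome-associated membrane proteins (Lamp1 and Lamp2), the V-ATPase subunit Atp6v0d1 and the tetraspanin Cd63. They were chosen by symbol: a probe set was taken as a member's where the platform annotation gave that symbol and no other, and the brightest probe set stood for the gene. Under this rule 9 of the 10 genes were measured, with 17 probe sets, out of 12393 genes with a probe set. All 9 passed the filter on dim signals, which 7619 genes passed. Cd63 has 0 probe sets under this rule and is not analysed further.

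RNA came from cultured adult mouse neural stem cells, hybridised to 16 Affymetrix arrays, in a search for genes whose expression depends on Tlx (gene Nr2e1), a nuclear receptor that keeps neural stem cells dividing. CreER cultures, of the genotype Tlx(f/Z;CreER), were treated with 4OH-TM, the active metabolite of tamoxifen, or with vehicle, and no Cre cultures, of the genotype Tlx(f/Z), were treated with 4OH-TM or with vehicle. Each of these 4 conditions was collected at 36 h and at 60 h, giving 8 groups of 2 arrays labelled as biological replicates. In CreER the recombinase Cre is joined to a piece of the estrogen receptor and acts once 4OH-TM binds it, f commonly marks an allele that Cre can delete, and all cultures carried Tlx(f/Z); the promoter that drives CreER, the meaning of Z and the source animals are not given in the labels used here. Nothing says that replicates came from separate animals, so the spread behind each p-value may be technical.

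The annotation gave Nr2e1 0 probe sets of its own, so its deletion was not checked. The Esr1 probe set, which can detect the estrogen receptor part of CreER where the fusion holds the probed stretch, averaged 382 ± 55.1 on CreER arrays and 21.3 ± 6.92 on no Cre arrays (SD, n = 8 each). Of 15 neural stem and progenitor markers with a probe set, 12 reached the filter, Sox2, Nes and Fabp7 among them, and Sox1, Hes5 and Prom1 did not. Arrays differed in brightness, with median signals from 92.2 to 132.6. The main counts of called members are therefore given both for the signals as deposited and after quantile normalization. Quantile normalization forces all arrays to 1 distribution and changes many of these counts. Calls of cell type markers and some counts of related genes are given as deposited only.

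Lysosomes are the acidic compartments in which cells break down protein, lipid and carbohydrate taken up by endocytosis or delivered by autophagy. The V-ATPase pumps protons into them, the acid activates cathepsins made as inactive precursors, and heavily glycosylated LAMP proteins line the membrane. The transcription factor TFEB and its relatives raise many lysosomal genes together by binding an E-box with the letters CACGTG, and in adult neural stem cells lysosomal activity is known to differ between quiescent and dividing cells.

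The promoters are shown because the members share a pathway with a known promoter element. RefSeq promoter windows of assembly GRCm38.p6, each running from 250 bases before a transcript start to 50 bases after it, were available for 8 of the 10 genes. The E-box CACGTG, which reads the same on both strands, was present in a window of 5 of these 8 genes, and in 4 of them a form with T before it on either strand, TCACGTG, which contains the E-box, was present. Of all 32851 windows of this length, 7.15% held the E-box and 3.77% the longer form. These are shares of windows, and a gene may have more than 1 window. Lamp1 had 4 copies, a number reached by 0.0244% of windows, and Ctsd had 2 copies. Ctsa has 2 transcript starts in the table, and the window of the downstream one had 2 copies. Atp6v0d1 and Ctsl had 1 copy each, and Ctsz, Lamp2 and Cd63 had 0 copies in the window. E-boxes are in capitals below, in stretches read 5′ to 3′ on the strand of the gene. These are matches of letters in DNA, binding was not measured, and a link of the matches to the signals was not tested.
Lamp1, plus strand, chr8:13159061-13159160: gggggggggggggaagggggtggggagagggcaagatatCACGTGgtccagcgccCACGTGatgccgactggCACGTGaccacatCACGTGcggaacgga
Ctsd, minus strand, chr7:142387908-142388077: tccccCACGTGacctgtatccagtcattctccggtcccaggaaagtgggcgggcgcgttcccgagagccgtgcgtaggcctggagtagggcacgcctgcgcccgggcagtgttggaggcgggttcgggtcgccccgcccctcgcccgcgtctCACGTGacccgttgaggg
Ctsa, plus strand, chr2:164833713-164833792: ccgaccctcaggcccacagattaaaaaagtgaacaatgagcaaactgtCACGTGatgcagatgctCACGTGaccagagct
Atp6v0d1, minus strand, chr8:105566045-105566124: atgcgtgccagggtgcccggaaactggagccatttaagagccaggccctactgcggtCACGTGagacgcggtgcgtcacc
Ctsl, minus strand, chr13:64370671-64370770: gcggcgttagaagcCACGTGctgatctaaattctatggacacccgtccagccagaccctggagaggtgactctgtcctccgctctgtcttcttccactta
Ctsz, minus strand, chr2:174439040-174439139: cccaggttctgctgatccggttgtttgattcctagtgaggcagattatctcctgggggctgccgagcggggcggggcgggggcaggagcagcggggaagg

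In CreER cultures, 4OH-TM raised Ctsd and Ctsl, by 1.35-fold and 1.32-fold over vehicle, and 8 of the 9 measured genes had a positive difference. Ctsd encodes cathepsin D, the main aspartic protease of the lysosome, and Ctsl encodes cathepsin L, a cysteine endopeptidase. Under limma with Benjamini-Hochberg adjustment over all tested genes, these 2 of 9 members passed 0.05 over both times and 0 of 9 fell, where 4.00% of all tested genes were called higher and 8.36% lower. After quantile normalization 7 of the 9 were called higher, all but Ctsh and Ctsz, against 19.6% of all genes. The median log2 difference of the members was 0.26 as deposited and 0.34 after quantile normalization, and that of all genes was -0.07 and 0.00.

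**Figure D1:**
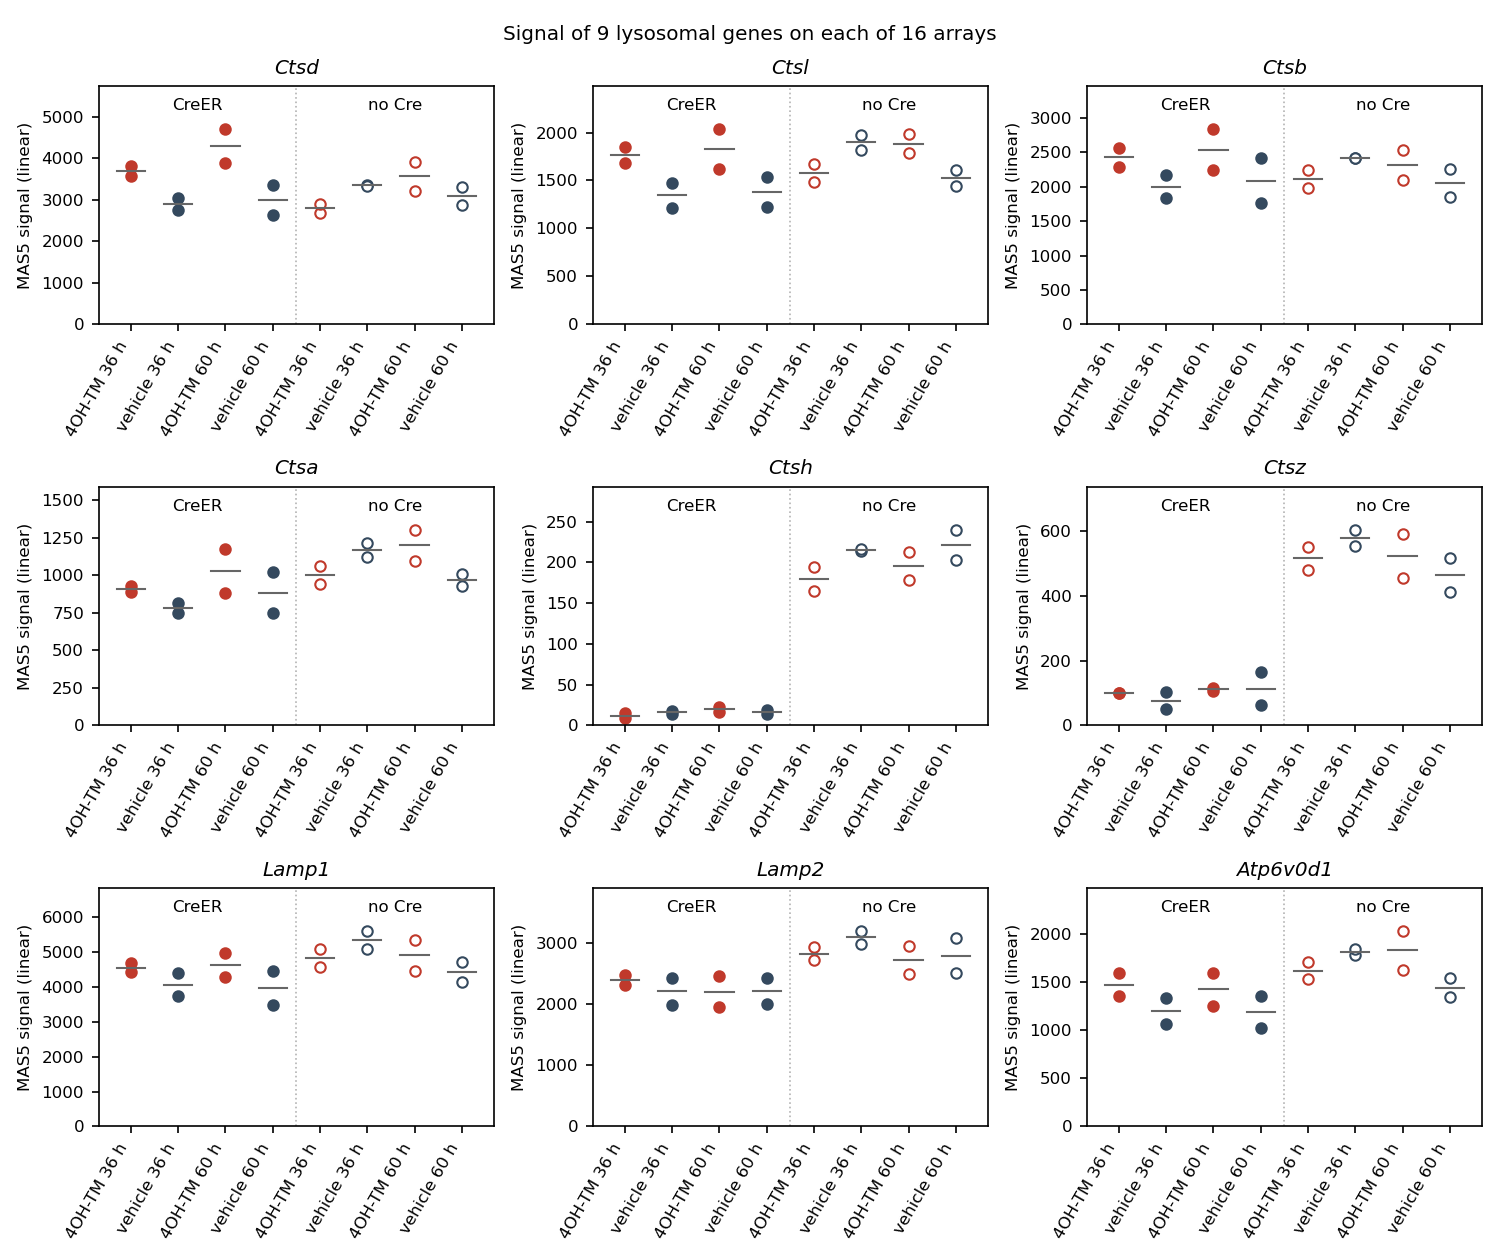
Linear MAS5 signal of each of 9 lysosomal genes (vertical axes, starting at 0) on each of 16 arrays, with filled points for CreER cultures, open points for no Cre cultures, red for 4OH-TM, blue for vehicle and a bar at the mean of each group of 2 arrays. Ctsh reads 9 to 23 on the CreER arrays and 165 to 240 on the no Cre arrays, and Ctsd and Ctsl are higher on all 4 CreER 4OH-TM arrays than on all 4 CreER vehicle arrays.

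Ctsd had signals of 3565 and 3823 at 36 h and of 3876 and 4703 at 60 h in CreER cultures given 4OH-TM, against 2755 and 3036 at 36 h and 2627 and 3359 at 60 h in CreER cultures given vehicle. Every 4OH-TM array was above every vehicle array, which held for 2.72% of all tested genes in the higher direction. The difference was 0.44 on the log2(signal + 16) scale (SE 0.11, 95% interval 0.22 to 0.65, limma adjusted p = 0.00169), a scale that hardly compresses a signal this bright.

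Ctsl had signals of 1681 and 1845 at 36 h and of 1619 and 2037 at 60 h in CreER cultures given 4OH-TM, against 1211 and 1478 at 36 h and 1223 and 1538 at 60 h in CreER cultures given vehicle. The 4OH-TM arrays again lay above all vehicle arrays. Its difference was 0.40 on the log2 scale (SE 0.12, limma adjusted p = 0.0169). The call for Ctsl was lost when 1 array was left out in 4 of 16 cases, namely CreER vehicle 36 h replicate 1 (adjusted p = 0.114), CreER vehicle 60 h replicate 2 (0.0702), CreER 4OH-TM 36 h replicate 2 (0.115) and CreER 4OH-TM 60 h replicate 2 (0.0815). That for Ctsd was kept in all 16, with a largest limma adjusted p of 0.0256. Both calls also rested on the variance that limma borrows across genes: with no moderation the adjusted p was 0.0573 for Ctsd and 0.0863 for Ctsl, and with no filter on dim genes it was 0.0296 and 0.0512. With only the CreER arrays in the fit it was 0.0164 for Ctsd and 0.0818 for Ctsl.

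Ctsb encodes cathepsin B, a cysteine protease, and its arrays overlapped as deposited. It had signals of 2291 and 2568 at 36 h and of 2243 and 2840.3 at 60 h in CreER cultures given 4OH-TM, against 1834 and 2171 at 36 h and 1767 and 2412 at 60 h in those given vehicle. The log2 difference was 0.28 as deposited (limma adjusted p = 0.0943) and 0.34 after quantile normalization (limma adjusted p = 2.01e-06). After quantile normalization the arrays separated, with 2438 to 2803 under 4OH-TM and 1993 to 2229.8 under vehicle, which held for 12.5% of all genes in the higher direction. All 4 probe sets of Ctsb gave positive differences, from 0.11 to 0.29 as deposited.

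Atp6v0d1 encodes the d1 subunit of the membrane-embedded V0 sector of the proton pump. It had signals of 1349 and 1592 at 36 h and of 1249.5 and 1589.7 at 60 h in CreER cultures given 4OH-TM, against 1064 and 1332 at 36 h and 1020.0 and 1352 at 60 h in those given vehicle. The highest vehicle array lay above the lowest 4OH-TM array. The log2 difference was 0.28 as deposited (limma adjusted p = 0.132) and 0.35 after quantile normalization (limma adjusted p = 6.9e-06).

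Ctsa encodes the serine carboxypeptidase that also protects beta-galactosidase and neuraminidase in the lysosome, and Lamp1 and Lamp2 encode the most abundant lysosomal membrane glycoproteins. Ctsa ranged from 879 to 1177 over the CreER 4OH-TM arrays and from 745 to 1019 over the CreER vehicle arrays, a log2 difference of 0.22 that did not pass as deposited (limma adjusted p = 0.305) and of 0.30 that passed after quantile normalization (2.45e-04). Lamp1 ranged from 4276 to 4966 under 4OH-TM and from 3485 to 4462 under vehicle, with log2 differences of 0.20 in both scalings (limma adjusted p = 0.213 and 3.04e-04). Lamp2 ranged from 1948 to 2483 under 4OH-TM and from 1997 to 2437 under vehicle, and its log2 difference was 0.05 as deposited (limma adjusted p = 0.83) and 0.11 after quantile normalization (0.0166). The 4 probe sets of Lamp2 differed in size, from 0.05 to 0.28 as deposited, and the one used gave the smallest.

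Ctsh, an aminopeptidase of the cathepsin family, and Ctsz, a carboxypeptidase of that family, passed in neither scaling. Ctsh read between 8.86 and 22.6 over all 8 CreER arrays, below the filter cutoff of 51.1, and entered the tests only through its no Cre signals, so that its response in CreER cultures is a difference between dim readings (log2 -0.04 as deposited, 95% interval -0.37 to 0.30). Ctsz ranged from 99.4 to 117 under 4OH-TM and from 49.4 to 164 under vehicle in CreER cultures, with a log2 difference of 0.26 (95% interval -0.01 to 0.53, limma adjusted p = 0.228).

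By time, 0 of 9 members passed at 36 h as deposited, where 1.12% of all genes were called higher and 3 members had an unadjusted p under 0.05, and 6 passed after quantile normalization, where 9.70% were. At 60 h Ctsd passed as deposited, with a log2 difference of 0.52 (SE 0.16, limma adjusted p = 0.0174), against 2.36% of all genes called higher, and 6 members passed after quantile normalization, against 16.2%. The same 6 genes passed at both times after quantile normalization, Ctsa, Ctsb, Ctsd, Ctsl, Lamp1 and Atp6v0d1. The Ctsd call at 60 h was lost without CreER vehicle 60 h replicate 2 (log2 0.34, adjusted p = 0.192) and without CreER 4OH-TM 60 h replicate 2 (log2 0.38, adjusted p = 0.163). The response at 60 h minus that at 36 h passed for 0 of 9 members in either scaling, where 0.197% and 2.19% of all genes passed in either direction and 0 and 1 members had an unadjusted p under 0.05. For Ctsd that difference was 0.17 as deposited (95% interval -0.26 to 0.60), an interval that holds 0. The median of all genes was at -0.11 in the 60 h comparison as deposited and at 0.01 after quantile normalization.

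In cultures without Cre, 4OH-TM gave no call over both times together, but after quantile normalization Atp6v0d1, Ctsa and Ctsl were higher at 60 h. Over both times 0 of the 9 genes passed under limma in either scaling, where 0.0656% of all genes passed as deposited and 0.814% after quantile normalization. Of the members 0 as deposited and 2 after quantile normalization had an unadjusted p under 0.05. The comparison at each time was added after the data were seen. At 36 h 0 of 9 passed, where 0.0394% of all genes passed as deposited and 0.00% after quantile normalization, and 0 and 1 members had an unadjusted p under 0.05. As deposited all 9 differences at 36 h were negative, from -0.26 for Ctsd and Ctsl to -0.13 for Lamp2 on the log2 scale.

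At 60 h 0 of 9 passed as deposited in no Cre cultures, where 0.171% of all genes passed and 0 members had an unadjusted p under 0.05. After quantile normalization 3 were called higher, where 7.42% of all genes passed in either direction. Atp6v0d1 had quantile-normalized signals of 1769 and 1843 under 4OH-TM, against 1447 and 1456 under vehicle (log2 0.31, limma adjusted p = 0.00523). Ctsa had 1163 and 1173 under 4OH-TM, against 935 and 997 under vehicle (log2 0.27, limma adjusted p = 0.0322), and Ctsl differed by 0.29 (limma adjusted p = 0.00507). Ctsh and Lamp2 had negative differences (log2 -0.17 and -0.07), neither past the threshold. With 2 arrays a side, arrays without overlap are common. The share of all genes without overlap in no Cre cultures at 60 h was not counted, so no count of members is given. With 1 of the 4 no Cre arrays of 60 h left out, 1 or 2 of the 9 members stayed called. Ctsa was lost in all 4 cases, Ctsl without no Cre vehicle replicate 2 (adjusted p = 0.0548) or 4OH-TM replicate 2 (0.059), and Atp6v0d1 without 4OH-TM replicate 1 (0.0675). In CreER cultures at 60 h the quantile-normalized log2 differences of the same genes were 0.38 for Atp6v0d1, 0.34 for Ctsa and 0.49 for Ctsl.

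Ctsd had deposited signals of 2680.1 and 2907 at 36 h and of 3220.0 and 3907 at 60 h in no Cre cultures given 4OH-TM, against 3342 and 3357 at 36 h and 2882 and 3300.2 at 60 h in those given vehicle. At 36 h the 4OH-TM arrays were below the vehicle arrays and at 60 h the groups overlapped. Its log2 difference over both times was -0.03 (95% interval -0.25 to 0.18). Ctsl had signals of 1485 and 1674 at 36 h and of 1783 and 1983 at 60 h under 4OH-TM, against 1822 and 1974 at 36 h and 1442 and 1605 at 60 h under vehicle. The order of the treatments was opposite at the 2 times. The difference over both times, 0.02 (95% interval -0.22 to 0.26), averages over that. Across the members the log2 differences over both times ran from -0.20 for Ctsh to 0.09 for Atp6v0d1 as deposited, and Ctsb, Ctsd, Ctsz and Lamp1 changed sign after quantile normalization.

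**Figure D2:**
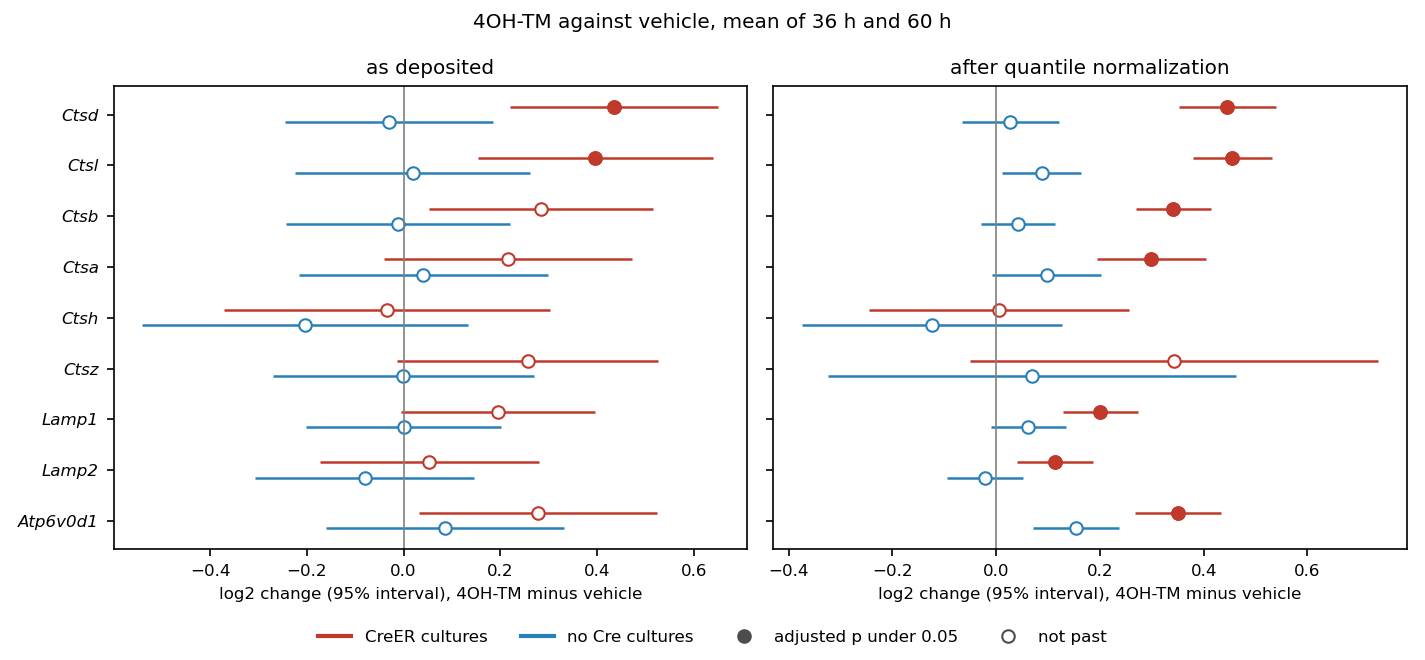
Log2 difference of 4OH-TM minus vehicle over both times (horizontal axis, log2(signal + 16)) for 9 lysosomal genes, with 95% limma intervals, in CreER cultures (red) and no Cre cultures (blue), as deposited (left) and after quantile normalization (right). Filled points passed an adjusted p of 0.05; Ctsd and Ctsl are filled in red at left, 7 genes are filled in red at right, and 0 are filled in blue.

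The response to 4OH-TM was tested directly between the 2 genotypes. All 9 differences of responses, CreER minus no Cre, were positive, but as deposited 0 of 9 passed, where 2.34% of all genes passed in either direction and 1.52% in the positive one and 2 members had an unadjusted p under 0.05. Ctsd had the largest, 0.47 on the log2 scale (95% interval 0.16 to 0.77, limma adjusted p = 0.0896), followed by Ctsl at 0.38 (0.367). After quantile normalization 4 of 9 passed, against 9.07% of all genes in the positive direction: Ctsd at 0.42 (limma adjusted p = 2.88e-04), Ctsl at 0.37 (1.62e-04), Ctsb at 0.30 (4.95e-04) and Atp6v0d1 at 0.20 (0.0212). The other 5, Ctsa, Lamp1, Lamp2, Ctsh and Ctsz, did not pass in either scaling. At each time alone, added after the data were seen, 0 of 9 passed as deposited, where 0.932% of all genes passed at 36 h and 0.971% at 60 h, and 4 and 0 members had an unadjusted p under 0.05. After quantile normalization 5 passed at 36 h, all with a positive difference, where 14.5% of all genes passed in either direction. They were Ctsl at 0.53 (limma adjusted p = 4.12e-04), Ctsb at 0.36 (0.00332), Ctsd at 0.43 (0.00535), Atp6v0d1 at 0.33 (0.0124) and Ctsa at 0.33 (0.0348). At 60 h Ctsd at 0.40 (0.00807) and Ctsb at 0.24 (0.0307) passed, against 11.5%, and Ctsl at 0.20 (0.0833), Atp6v0d1 at 0.06 (0.637) and Ctsa at 0.07 (0.696) did not.

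Between genotypes under vehicle, CreER cultures had lower signals of most members. Ctsh passed the filter only through its no Cre arrays and so had to differ, and it is left out of the counts that follow. Of the other 8 members 6 were called lower and 0 higher as deposited, and the same numbers after quantile normalization, against 26.6% and 26.1% of all genes lower. Under 4OH-TM Ctsz and Lamp2 were lower and Ctsd was higher, against 30.0% of all genes lower and 8.58% higher as deposited. After quantile normalization Ctsb, Ctsd and Ctsl were higher and the same 2 lower, against 27.7% higher and 28.3% lower. The median of all genes was shifted by -0.13 under vehicle and by -0.15 under 4OH-TM as deposited, and by 0.02 and 0.00 after quantile normalization.

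Ctsh averaged 15.9 ± 4.09 over the CreER arrays and 203 ± 23.4 over the no Cre arrays (SD, n = 8 each). The 2 genotypes did not overlap in any treatment or at any time: CreER arrays read 8.86 to 22.6 and no Cre arrays 165 to 240. These levels are given as a description, with no test, since every CreER reading lay below the filter cutoff. The size of the difference depends on how such readings are treated: under vehicle it was -1.81 on the log2 scale with a pseudocount of 64 and -3.68 with a pseudocount of 1.

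Ctsz averaged 99.9 ± 34.6 over the CreER arrays and 520.4 ± 66.8 over the no Cre arrays (SD, n = 8 each), with ranges of 49.4 to 164 and 413 to 603 that did not overlap. The log2 difference was -2.39 under vehicle (SE 0.14, limma adjusted p = 1.28e-64) and -2.13 under 4OH-TM (limma adjusted p = 1.5e-51). All 3 probe sets of Ctsz gave a difference of this size, from -2.58 to -2.10 under vehicle. After quantile normalization the difference under vehicle was -2.25 (limma adjusted p = 7.89e-08); as deposited each gene's variance was set by the trend shared by all genes, so the smaller p-values take no account of how much Ctsz itself varied. Arrays that did not overlap in the lower direction were found for 18.1% of all genes under vehicle and for 20.3% under 4OH-TM.

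**Figure D3:**
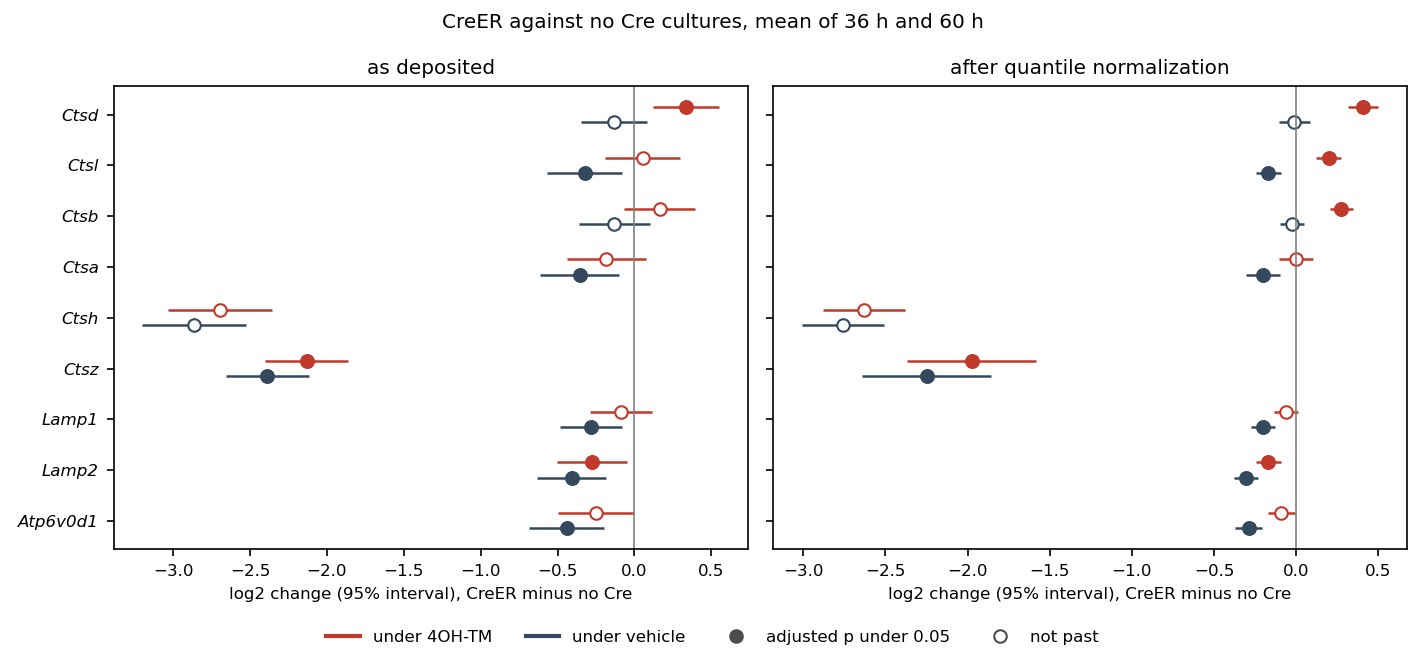
Log2 difference of CreER minus no Cre cultures over both times (horizontal axis, log2(signal + 16)) for 9 lysosomal genes with 95% limma intervals, under 4OH-TM (red) and under vehicle (blue), as deposited (left) and after quantile normalization (right), filled where the adjusted p was under 0.05; Ctsh, dim on all CreER arrays, is drawn open and not called. Ctsz lies between -2.39 and -1.97 in every case, and the genes other than Ctsh and Ctsz lie within 0.5 of 0.

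Lamp2 ranged from 1997 to 2437 in CreER vehicle cultures and from 2506 to 3202 in no Cre vehicle cultures, without overlap, at a log2 difference of -0.41 (SE 0.12, limma adjusted p = 0.00212). Under 4OH-TM its log2 difference was -0.28 (limma adjusted p = 0.0455), a call lost when any of 10 single arrays was left out, with adjusted p-values up to 0.242 (without CreER 4OH-TM 60 h replicate 1). Ctsd was higher under 4OH-TM by 0.33 (limma adjusted p = 0.0088), a call lost without CreER 4OH-TM 36 h replicate 2 (0.0529), CreER 4OH-TM 60 h replicate 2 (0.0524), no Cre 4OH-TM 36 h replicate 1 (0.0581) or no Cre 4OH-TM 60 h replicate 2 (0.0649). Atp6v0d1 was lower under vehicle by a log2 difference of -0.44 (limma adjusted p = 0.00232), Ctsa by -0.36 (0.0222), Ctsl by -0.32 (0.0295) and Lamp1 by -0.28 (0.021), all with overlapping arrays. Ctsb and Ctsd did not pass under vehicle, both at -0.13 (limma adjusted p = 0.417 and 0.372). Of the 8 members counted under vehicle, 3 in place of 6 were called without CreER vehicle 36 h replicate 1, without CreER vehicle 60 h replicate 2 or without no Cre vehicle 60 h replicate 2. With the 5′ to 3′ actin signal ratio as a covariate only Ctsz of the 8 stayed called under vehicle; that ratio, a sign of RNA integrity, was 0.548 to 0.666 on the 4 no Cre arrays of 36 h and 0.716 to 0.891 on the other 12 arrays.

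Markers of other cells were read on the same arrays, because microglia and macrophages are rich in cathepsins. Of 16 microglia and macrophage genes with a probe set, 1 (Csf1r) reached the filter, and the summed signal of the list was 297 to 339 in CreER 4OH-TM cultures, 268 to 388 in CreER vehicle cultures, 339 to 453 in no Cre 4OH-TM cultures and 306 to 317 in no Cre vehicle cultures. These ranges overlap between the genotypes under vehicle and lie next to each other without overlap under 4OH-TM, and Aif1, Itgam, Tyrobp and Ptprc lay at mean signals of 7.88 to 14.8 in both. The genes of that list did not all go 1 way between genotypes. Some that lay below the filter averaged higher in CreER cultures. Adgre1 averaged 26.5 in CreER cultures and 19.97 in no Cre cultures, and Cx3cr1 21.5 in CreER cultures and 17.9 in no Cre cultures. Trem2 averaged 32.4 in CreER cultures and 29.6 in no Cre cultures. Others averaged lower in CreER cultures. Csf1r averaged 56.9 in CreER cultures and 79.4 in no Cre cultures over both treatments (log2 -0.34 under vehicle alone, limma adjusted p = 0.108). P2ry12 averaged 17.9 in CreER cultures and 31.7 in no Cre cultures, C1qb averaged 14.2 in CreER cultures and 20.9 in no Cre cultures, and Fcer1g 17.7 in CreER cultures and 22.6 in no Cre cultures, all 3 below the filter. Fibroblast and meningeal genes did differ by genotype, with a summed signal of 3291 to 4142 in CreER 4OH-TM cultures and 2743 to 3917 in CreER vehicle cultures, against 492 to 688 in no Cre 4OH-TM cultures and 568 to 647 in no Cre vehicle cultures. The 2 of 8 genes that reached the filter were Thy1, at 2515 in CreER cultures and 133 in no Cre cultures on average, and Fbln1, at 1009 in CreER cultures and 349 in no Cre cultures, and Col1a1, Col1a2, Col3a1, Dcn, Lum and Pdgfra averaged at most 29.6 in either genotype.

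Some markers of neural cells differed by genotype as well. As deposited 26.6% of all genes were called lower and 7.97% higher under vehicle, and the marker lists are too short to set against these shares. Averages of single markers are over both treatments and both times, whereas log2 differences and calls are under vehicle alone. Of 12 neural stem and progenitor markers tested, 5 were lower and 1 higher in CreER cultures under vehicle, among them Sox9 (320 in CreER cultures and 691 in no Cre cultures on average, log2 -1.13) and Nes (1776 in CreER cultures and 2912 in no Cre cultures, log2 -0.83). The summed signal of that list was 22200 to 26783 in CreER vehicle cultures and 24498 to 30644 in no Cre vehicle cultures. Of 4 astrocyte markers S100b was lower under vehicle, at log2 -1.48. It averaged 328 in CreER cultures and 534 in no Cre cultures over both treatments, and it was higher under 4OH-TM in CreER cultures. Another 2 were higher, Aldh1l1 among them (164 in CreER cultures, 64.9 in no Cre cultures). Gja1 was also called lower (34.5 in CreER cultures, 162 in no Cre cultures). Its CreER mean lay below the filter cutoff of 51.1, so it reached the filter through its no Cre signals and its call was favoured by that. The astrocyte sum was 4428 to 5632 in CreER vehicle cultures and 4018 to 4505 in no Cre vehicle cultures. Both neuronal markers tested were lower, Syt1 at 55.0 in CreER cultures and 177 in no Cre cultures. The lowest Syt1 signal was 33.7, below the filter cutoff, and its CreER mean lay only just above that cutoff. Its no Cre signals thus helped it reach the filter, and its call may have been favoured by that. The neuronal sum was 1580 to 1897 in CreER vehicle cultures and 1948 to 2295 in no Cre vehicle cultures. Most of the astrocyte sum was Aldoc, at 4045 in CreER cultures and 3311 in no Cre cultures. Most of the neuronal sum was Map2, at 1345 in CreER cultures and 1775 in no Cre cultures. Of 3 oligodendrocyte markers 0 were called, and of 2 endothelial and mural markers 1 was higher.

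Some of these markers also moved with 4OH-TM in CreER cultures, beside the members. As deposited 4.00% of all genes were called higher and 8.36% lower in that comparison. S100b was higher by a log2 difference of 1.05 (limma adjusted p = 3.01e-12) and Syt1 by 0.49 (0.0212), Map2 was lower by -0.38 (0.0245), and 3 of the 12 neural stem and progenitor markers were lower. The neural stem sum was 20230 to 25814 in CreER 4OH-TM cultures and 22200 to 26783 in CreER vehicle cultures. The astrocyte sum, mostly Aldoc, was 4202 to 5067 under 4OH-TM and 4428 to 5632 under vehicle. The neuronal sum, mostly Map2, was 1046 to 1577 under 4OH-TM and 1580 to 1897 under vehicle. The part of all these markers in the differences of the members was not tested. In RNA from whole cultures fewer cells of a type and less RNA per cell cannot be told apart. The cultures of the 2 genotypes also differed under vehicle at 34.5% of all tested genes as deposited and at 55.3% after quantile normalization. Whether they differ in more than CreER cannot be told apart from the effect of CreER.

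At 60 h against 36 h, 0 of 9 members passed in CreER cultures as deposited, with 5.28% of all genes called in either direction, and 4 (Ctsa, Ctsb, Ctsd and Ctsl) were higher after quantile normalization, with 11.2% of all genes called higher. In no Cre cultures 0 of 9 passed as deposited, with 4.10% called in either direction and the median of all genes at -0.11, and Ctsd and Ctsl were higher after quantile normalization, with 12.3% called higher. As deposited, Ctsd differed by 0.12 in CreER cultures and by 0.11 in no Cre cultures on the log2 scale, neither past the threshold, and the quantile-normalized differences were 0.19 (limma adjusted p = 0.0055) and 0.24 (0.00142). In no Cre cultures the 5′ to 3′ actin signal ratio differed along with time. It was 0.548 to 0.666 on the arrays of 36 h and 0.773 to 0.891 on those of 60 h.

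Some other lysosomal and related genes were also higher under 4OH-TM in CreER cultures. From 9 lists of related genes, 142 genes were tested; 15 were higher and 1 lower as deposited, and 73 were higher and 6 lower after quantile normalization, read against 4.00% of all genes higher and 8.36% lower as deposited and 19.6% higher and 19.2% lower after quantile normalization. In cultures without Cre over both times 0 passed as deposited and 2 after quantile normalization, against 0.0656% and 0.814% of all genes. The difference of responses passed for 1 gene as deposited, Foxo3, a smaller share than the 2.34% of all genes. It was positive and past the threshold for 41 and negative for 4 after quantile normalization, against 9.07% and 10.1% of all genes. The median log2 response of the 142 in CreER cultures was 0.10 as deposited and 0.17 after quantile normalization.

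The counts of each list are read against the same shares, 4.00% of all genes higher as deposited and 19.6% after quantile normalization, and the single calls as deposited among peptidases, membrane proteins, tetraspanins and inhibitors are too few to set against the first. Of 28 lysosomal glycosidases, sulfatases and lipid enzymes, 3 were higher as deposited and 17 after quantile normalization, and 0 were lower. Smpd1, acid sphingomyelinase, averaged 913 ± 110 under 4OH-TM and 649 ± 121 under vehicle in CreER cultures (SD, n = 4 each; log2 0.49, limma adjusted p = 0.004). Manba, beta-mannosidase, differed by a log2 of 0.59 (0.00437) and Arsa, arylsulfatase A, by 0.40 (0.0269). Of 10 other lysosomal peptidases, Cpq was higher as deposited (log2 0.41, 0.0276), and 8 were higher and 1, Ctsc, was lower after quantile normalization. Tpp1, tripeptidyl peptidase 1, averaged 2116 ± 142 under 4OH-TM and 1693 ± 238 under vehicle (SD, n = 4 each), a log2 difference of 0.33 that missed the threshold as deposited (limma adjusted p = 0.053) and passed after quantile normalization at 0.38 (9.4e-06).

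Among 15 activators, transporters and other membrane proteins, Grn, the gene of progranulin, was higher as deposited (3043 ± 353 under 4OH-TM and 2329 ± 368 under vehicle, SD, n = 4 each; log2 0.39, limma adjusted p = 0.00979), and 10 were higher after quantile normalization. Of 16 other V-ATPase subunits, Atp6ap1 and Atp6v1f passed as deposited (log2 0.34 in both, 0.0413 and 0.0476), and 11 were higher after quantile normalization. The cathepsin inhibitor Cst3, cystatin C, was also higher (log2 0.34, limma adjusted p = 0.025), 1 of 3 inhibitors tested. The 18 genes of mannose 6-phosphate tagging and sorting had 0 calls as deposited and 5 higher and 3 lower after quantile normalization, both near the shares of all genes.

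Of 15 regulators of lysosomal genes, Foxo3, Flcn and Mitf were higher as deposited, and Foxo1, named after its values were seen, was lower (log2 -0.41, limma adjusted p = 0.0369). Foxo3, a forkhead factor that maintains neural stem cells and induces autophagy genes, averaged 912 ± 178 under 4OH-TM and 477 ± 120 under vehicle in CreER cultures (SD, n = 4 each; log2 0.93, limma adjusted p = 8.86e-10). Flcn, folliculin, which governs TFEB through mTORC1 signalling, differed by 0.49 (0.00472), and Mitf, a relative of TFEB, by 0.50 (0.0274). Of 22 autophagy genes, Map1lc3a, Atg13 and Gabarapl1 were higher as deposited, with log2 differences of 0.46, 0.49 and 0.36 (limma adjusted p = 0.00864, 0.00913 and 0.0368), and 9 were higher and 1 lower after quantile normalization. Of 15 other tetraspanins, relatives of Cd63, Cd151 was higher as deposited (log2 0.44, limma adjusted p = 0.00692) and 4 after quantile normalization, shares near those of all genes.

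**Figure D4:**
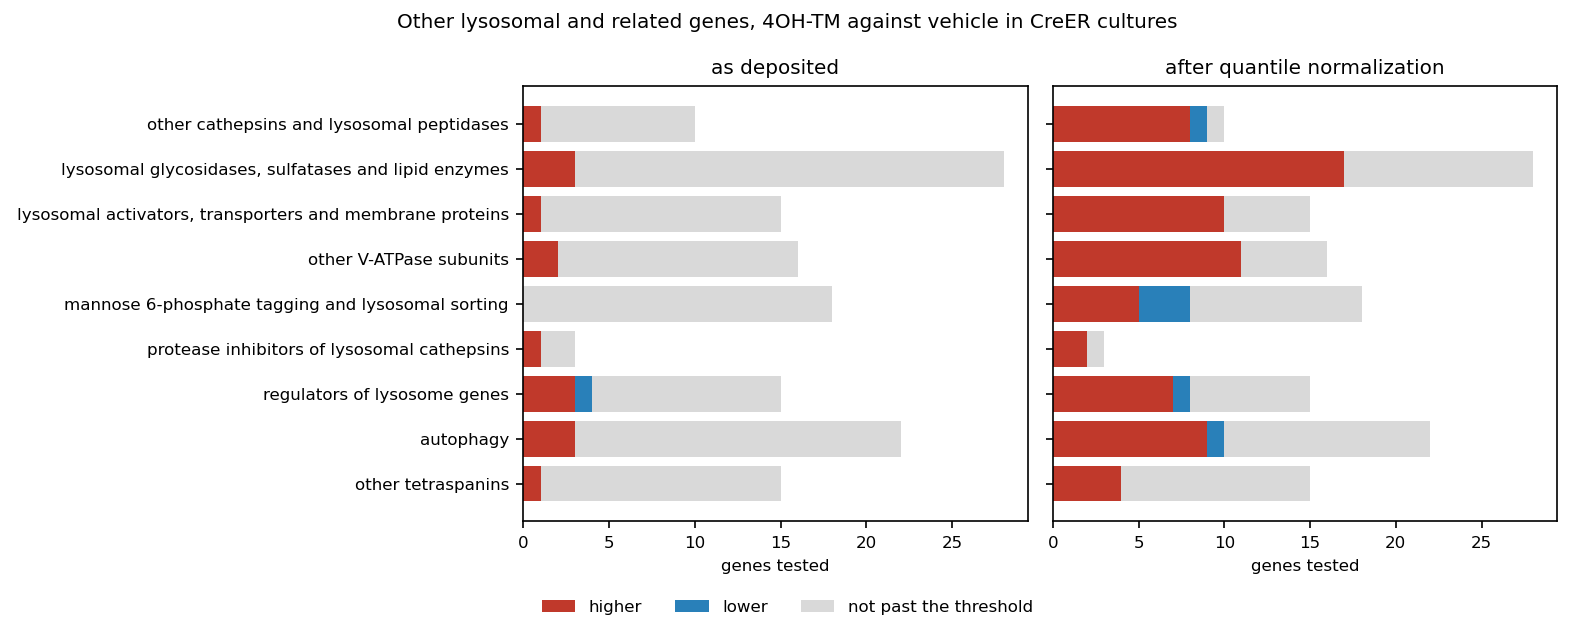
Number of tested genes (horizontal axis) in each of 9 lists related to the lysosome that were higher (red), lower (blue) or not past an adjusted p of 0.05 (grey) in the CreER response to 4OH-TM over both times, as deposited (left) and after quantile normalization (right). As deposited 15 of 142 genes are higher and 1 is lower, and after quantile normalization 73 are higher and 6 lower.

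Between genotypes under vehicle, 52 of the 142 genes were lower and 10 higher in CreER cultures as deposited, and 56 were lower and 27 higher after quantile normalization, read against 26.6% of all genes lower and 7.97% higher as deposited and 26.1% lower and 29.2% higher after quantile normalization. Cpq, a carboxypeptidase, was lower, with 77.3 ± 7.01 in CreER vehicle cultures and 672 ± 73.2 in no Cre vehicle cultures (SD, n = 4 each; log2 -2.88, limma adjusted p = 5.35e-96). Sort1, the sorting receptor sortilin, averaged 565 ± 89.2 in CreER vehicle cultures and 1372 ± 188 in no Cre vehicle cultures (SD, n = 4 each; log2 -1.26). Gm2a, the GM2 activator, went the other way, with 1349.7 ± 169 in CreER vehicle cultures and 609 ± 86.7 in no Cre vehicle cultures (SD, n = 4 each; log2 1.13, limma adjusted p = 2.62e-16).

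The 9 members did not share 1 profile over the 16 arrays. Pearson correlations were taken between their log2 signals after each array's median over all tested genes was subtracted. They ran from -0.56 for Ctsb with Ctsh to 0.94 for Ctsh with Ctsz, as a description in which arrays share a group. Ctsb with Ctsd reached 0.94 and Ctsl with Lamp1 0.86, whereas Ctsz with Ctsl was at -0.02. The genes with the profile most like the members' mean, over 16 arrays, were Selenop (r = 0.98), Ndrg3 (0.98), Ecrg4 (0.98), Acad11 (0.98) and Gadd45g (0.98). All 5 were lower in CreER cultures, as Ctsz was: Selenop averaged 2389 ± 508 in CreER cultures and 4886 ± 373 in no Cre cultures, and Gadd45g 120 ± 54.2 in CreER cultures and 327 ± 39.1 in no Cre cultures (SD, n = 8 each). Ctsh correlated with the members' mean, of which it is a part, at 0.89, and Ctsb and Ctsd at -0.15 and -0.12. That mean holds Ctsh and Ctsz, whose differences between genotypes were the largest of the members. Ctsh passed the filter only through its no Cre arrays. Genes most like the mean were thus bound to be lower in CreER cultures, and do not describe the other members.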

How the data were processed

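The labels' protocols name TRIzol extraction and the ENZO biotin labelling kit, and the submitters' processing notes name MAS5; its version and scaling target are not given in the sources used here. The table deposited by the authors holds 1 linear intensity per probe set and array. Of 22690 probe sets, 64 controls were left out, and of the other 22626, 20380 had 1 symbol, 691 several and 1555 none; 20351 of the 20380 matched a RefSeq gene of GRCm38.p6 by Entrez ID. The brightest probe set stood for each of 12393 genes, and 7619 whose mean log2(signal + 16) reached the 40th percentile (6.07, a signal of 51.1) were tested. A single limma model (limma 3.58.1, R 4.3.3) held the means of all 8 groups over the 16 arrays, leaving 8 residual degrees of freedom; variances were moderated along a mean-variance trend, and two-sided p-values were adjusted by Benjamini-Hochberg within each comparison at 0.05. Prior degrees of freedom were infinite as deposited and 6.84 after quantile normalization. The fit was tested on simulated data.

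The 10 members are all given; from the 9 lists of related genes up to 3 with the smallest p per list and comparison could be named. The members and lists were chosen with earlier results of these data known. The 4OH-TM response of no Cre cultures and the difference of responses at each time alone were added after the data were seen. The number of arrays limits the precision. Replicate numbers did not pair the samples. Alternatives were another pseudocount, no filter, median scaling, quantile normalization, other variance settings, the actin ratio as a covariate, the arrays compared alone, a replicate block and each array left out in turn.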

Additional observations from a re-analysis of the deposited data

Results flagged for a closer look

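Foxo3, a regulator in the lists of related genes, differed between genotypes in its response to 4OH-TM by a test of the difference itself. Its response in CreER cultures minus that in no Cre cultures was 0.90 on the log2 scale (limma adjusted p = 4e-04). Signals averaged 912 ± 178 under 4OH-TM and 477 ± 120 under vehicle in CreER cultures, and 782 ± 103 under 4OH-TM and 766 ± 98.8 under vehicle in no Cre cultures (SD, n = 4 each). Under vehicle Foxo3 was also lower in CreER than in no Cre cultures, at a log2 difference of -0.69 (limma adjusted p = 2.54e-06), and the 2 differences share the CreER vehicle arrays.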

How the results depend on the processing

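For 4OH-TM in CreER cultures over both times, the 2 members called became 6 with median scaling, 7 with quantile normalization (7 with a replicate block added), 1 with no filter, 1 with the compared arrays alone and 0 with no moderation; leaving out 1 array gave 1 to 5, the most without CreER vehicle 60 h replicate 1, and 6 to 8 after quantile normalization. At 36 h the 0 called became 4 with median scaling, 6 with quantile normalization and 0 to 1 with 1 array left out. At 60 h the 1 called became 6 with median scaling or quantile normalization and 0 with no filter, no mean-variance trend, no moderation, the actin covariate or the compared arrays alone, and 0 to 2 with 1 array left out. For the difference of responses, 0 became 3 with median scaling, 4 with quantile normalization (6 with a replicate block added), 0 to 1 with 1 array left out and 3 to 6 with both. Counts between genotypes here include Ctsh. Under vehicle between genotypes, 7 became 4 with no moderation, 2 with the actin covariate and 4 to 7 with 1 array left out. Under 4OH-TM between genotypes, 4 became 2 to 4 with 1 array left out (2 without CreER 4OH-TM 36 h replicate 2 or no Cre 4OH-TM 36 h replicate 1) and 6 to 7 with quantile normalization as well. From 36 h to 60 h in CreER cultures 0 became 4 with quantile normalization and 0 to 1 with 1 array left out, and in no Cre cultures 2 lower with median scaling and 2 higher with quantile normalization. Between times in no Cre cultures 5 members changed sign, with log2 differences after quantile normalization and as deposited of 0.10 and -0.03 for Ctsl (past the threshold after it), 0.11 and -0.01 for Ctsa, 0.08 and -0.06 for Ctsb, 0.02 and -0.11 for Lamp2 and 0.06 and -0.08 for Atp6v0d1. The response of no Cre cultures over both times, and the CreER response at 60 h minus that at 36 h, stayed at 0 under every alternative run over both times, but the no Cre response became 3 at 60 h alone with quantile normalization, and the difference of responses 5 at 36 h alone and 2 at 60 h alone with quantile normalization. The causes of these changes were not tested. With the replicate number as a block, the counts were 2 for the CreER response over both times, 1 at 60 h, 7 between genotypes under vehicle and 3 under 4OH-TM; samples of the same number correlated by more than 0.1 in 6 of 28 pairs of groups (median -0.02), so the block stands here only. Signals near the floor, as of Ctsh in CreER cultures, limit how well a fold is known.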
